A study of Mus musculus with 20 samples.

Results

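Of the 9600 spots on the MA10 mouse array, 93 (0.969%) had a lower mean in the lungs of flaxseed-fed mice than in the lungs of untreated, irradiated, and flaxseed-fed and irradiated mice. The members were chosen on the authors' series table, whose values are background-subtracted intensities in multiples of the array's median. Each value was taken as log2(value + 0.6), and means were taken over the 5 arrays of a group. A member had a flaxseed mean more than 0.7 below each of the other 3 means, and its radiation and untreated means differed by less than 0.4. The difference between the flaxseed mean and the lowest of the other 3 is called the gap. All 20 arrays took part in this choice, so the low flaxseed values themselves are a description and carry no test.

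The mice were of the inbred strain C57BL/6, and total RNA from 1 lung sample per mouse was hybridised to 1 array. Untreated mice received neither treatment, flaxseed mice ate feed with 10% flaxseed for 21 days, irradiated mice received 13.5 Gy to the chest 48 hours before death, and mice of the combined group had the diet first and then the same dose. The labels do not state what the mice without flaxseed ate, nor the age and sex of any mouse. Each of the 4 groups held 5 mice, and the labels name no cell sort, so every value is an average over whole lung in which fewer cells of a type and less RNA per cell cannot be told apart.

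Flaxseed is rich in alpha-linolenic acid, a plant fatty acid, and in lignans, which gut bacteria convert to enterolactone and enterodiol. It has been studied in mice as a diet that may limit oxidative damage in the irradiated lung. Thoracic radiation damages the endothelium and epithelium of the lung, and inflammation and later fibrosis are its known effects. The tables used here do not pair the spots with genes, so the spots are given by number, no lung marker could be looked up, and no role is given to any spot.

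Median signal over local background per array was 4.65 to 6.53 over all spots. In the radiation group the table columns of replicates 4 and 5 matched the scanner file of the other one, and replicate numbers of that group below are those of the table. Group means were the same either way. With intensities computed from the scanner files in place of the table, 93 spots met the rule, and all 93 were the same spots.

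The 93 members were lower with flaxseed by a median of 0.84 against untreated lungs on the log2(value + 0.6) scale, with a range from 0.70 to 1.47. As a ratio on that scale, the highest was 2.76, and 20 of the 93 were more than 2-fold lower. The median over all 9600 spots was -0.01 (flaxseed minus untreated). Against radiation the median over members was -0.97, and against flaxseed with radiation it was -1.01. Mean radiation minus untreated values of the members lay between -0.37 and 0.38 with a median of 0.12, a range that the rule itself limits. Averaged over the 93 spots, flaxseed arrays stood at 3.28 ± 0.23 (log2, SD, n = 5) and untreated arrays at 4.17 ± 0.11. Irradiated mice without the diet stood at 4.26 ± 0.23, and those with it at 4.33 ± 0.14.

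**Figure D1:**
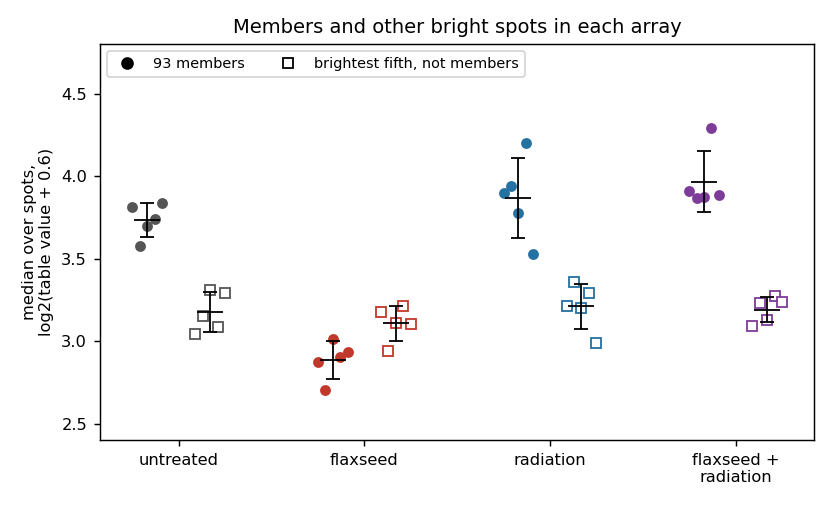
Median over the 93 members (filled circles) and over the other spots among the brightest 20% (open squares) in each of the 20 arrays, on the log2(table value + 0.6) scale; bars are mean and SD over 5 arrays. Member medians of the 5 flaxseed arrays sit between 2.70 and 3.01 and those of the other 15 between 3.53 and 4.29, as the choice of members requires, while the other bright spots overlap between groups.

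Spot gene1092 had the largest gap, at 1.29. Its values were 7.18, 7.09, 7.46, 7.20 and 7.76 in the untreated arrays and 6.52, 5.17, 5.30, 5.87 and 6.50 in the flaxseed arrays. With radiation they were 7.24, 6.78, 8.01, 7.68 and 7.32, and with both treatments 7.15, 7.34, 6.84, 7.48 and 7.02. All 5 flaxseed arrays lay below all 15 others, and the flaxseed arrays themselves spread over more than 1 log2 unit. In multiples of the array median, the mean was 163.5 in untreated lungs and 62.6 with flaxseed.

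Spot gene6982 had the second largest gap, 1.24, and stood highest in the combined group. Its readings were 7.33, 7.54, 7.57, 6.85 and 7.03 in untreated lungs. In flaxseed lungs it read 6.51, 5.22, 5.96, 5.21 and 6.80, in irradiated lungs 7.35, 6.87, 6.92, 8.22 and 6.52, and in lungs with both treatments 7.93, 7.78, 7.24, 8.48 and 7.77. The flaxseed arrays lay below all untreated arrays and all arrays with both treatments, but the highest of them was above radiation replicate 5.

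Spot gene2893 was the brightest member and the brightest spot of the array in 14 of 20 arrays, and in 2 of the 5 flaxseed arrays. Its values were 9.88, 9.19, 9.98, 9.80 and 9.71 in untreated lungs and 9.30, 8.11, 7.80, 8.56 and 9.06 with flaxseed, so that flaxseed replicate 1 lay above untreated replicate 2. The group means were 9.71 ± 0.31 (log2, SD, n = 5) untreated, 8.57 ± 0.63 with flaxseed, 9.85 ± 0.15 with radiation and 9.83 ± 0.31 with both. Its gap of 1.14 was 0.51 after background correction by normexp and quantile normalization, which moved it under the threshold. Quantile normalization gives the brightest spot of every array 1 common value.

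Spots gene0269 and gene2188 showed the pattern without overlap of the flaxseed arrays with any other. For gene0269 the flaxseed arrays read 4.40, 3.70, 4.26, 4.87 and 4.86, against a lowest value of 5.12 in untreated lungs, 5.26 with radiation and 5.67 with both. For gene2188 they read 2.62, 1.85, 2.51, 3.09 and 2.85, against lowest values of 3.30, 3.35 and 3.58 in the same order of groups. Spot gene5431 was more uneven: its flaxseed arrays read 1.36, 0.85, 0.69, 2.45 and 2.44, and replicates 4 and 5 lay among the untreated values of 2.15 to 3.37.

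**Figure D2:**
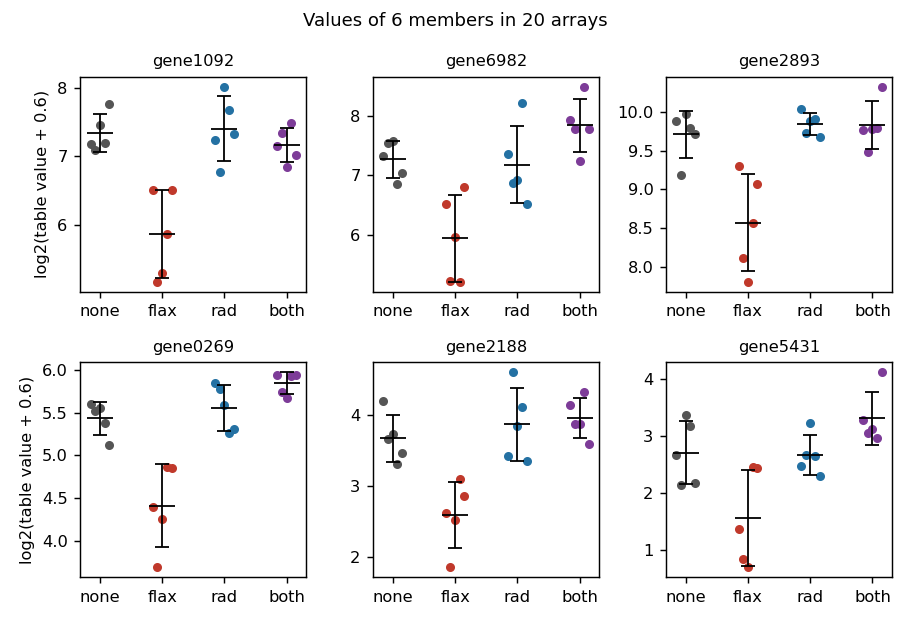
Values of 6 members in each of the 20 arrays on the log2(table value + 0.6) scale, by group (none, flax for flaxseed, rad for radiation, both), with mean and SD bars over 5 arrays; each panel has its own vertical range. The flaxseed mean is lowest in each panel, and flaxseed arrays overlap with other groups for gene6982, gene2893 and gene5431.

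The other members with a gap over 1 were gene1357, gene2661, gene6338, gene0545, gene0161 and gene3341, between 1.01 and 1.15. That of gene0161 rested on 1 array. The table gives it the value 0.002 in flaxseed replicate 3, where the scanner file has a signal of 117.02 over a background of 80.8, while the other 4 flaxseed arrays read 1.75 to 2.85 (log2). Its gap fell from 1.02 to 0.39 without that array, and it was the only member with a table value of 0.002 or less. The brightest members after gene2893 were gene0545 and gene0180, with means of 8.43 and 8.16 over all arrays, and the dimmest were gene0469, gene6941 and gene3934, with means of 1.74, 1.39 and 1.38.

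Just inside the threshold of 0.7 lay gene2219, gene6920 and gene1074, with gaps of 0.707, 0.704 and 0.702. Just outside it lay gene5588, gene3113 and gene5783, with gaps of 0.6998, 0.699 and 0.698. For gene3113, the flaxseed arrays spanned 4.02 to 5.94 and those with both treatments 4.47 to 7.18, so neighbours on either side of the threshold differed by far less than the spread between arrays.

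Of the 93 members, 25 had all 5 flaxseed arrays below all 15 other arrays, where 0.708% of all spots did, and 49 had them below all 5 untreated arrays, where 2.16% did. In 88 members every flaxseed array lay below the untreated mean, and in 5 members 4 of 5 did. The rule read these same arrays, so nothing is taken from these counts. Within the flaxseed group the spread was wide: the distance from lowest to highest array had a median of 1.03 over members and exceeded 1 in 48 of them. Flaxseed replicate 2 was the lowest of all 20 arrays in 43 members, replicate 4 in 21, replicate 3 in 12, replicate 1 in 10 and replicate 5 in 6, and radiation replicate 2 was the lowest in 1. Without flaxseed replicate 2 the rule found 67 spots, 61 of them members, and without flaxseed replicate 5 it found 133, including 90 members.

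To read the same measure in arrays that had no part in a choice, 1 flaxseed and 1 untreated array were left out, spots were chosen by the rule on the other 18, and the difference was read between the 2 arrays left out. Over the 25 such pairs the rule chose 60 to 154 spots. In the arrays that made the choice, the median of flaxseed minus untreated was -0.86 (the median of 25 pairs). In the arrays left out it was -0.61, with a range from -1.07 to -0.18, and it was below 0 in 25 of 25 pairs. Other spots among the brightest 20% had a median of -0.08 in the same arrays, with a range from -0.32 to 0.17. Read against radiation in the same way, the chosen spots differed by -0.79 (range -1.42 to -0.23), and against both treatments by -0.81 (range -1.50 to -0.46). The pairs share arrays, so they are not independent, and no test was made of them. The arrays left out belong to the same series. A shift common to all flaxseed arrays would recur in them, whatever its origin.

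**Figure D3:**
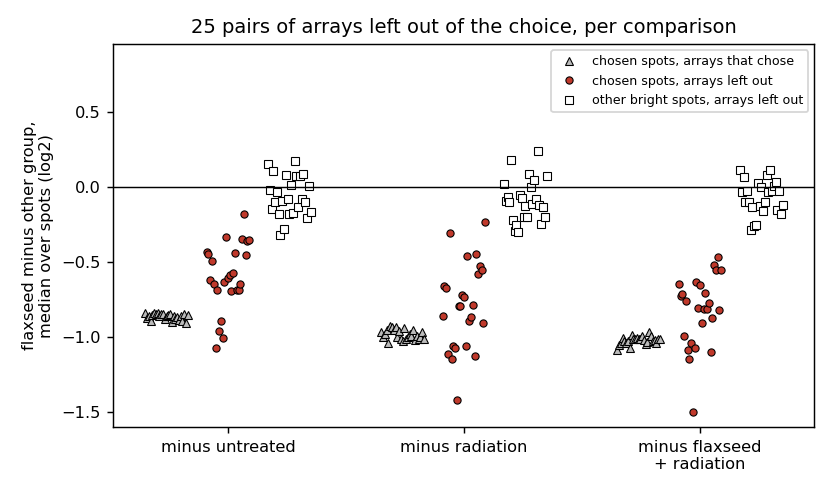
Median log2 difference between flaxseed arrays and arrays of each other group, each point being 1 of 25 pairs of arrays left out; triangles show the chosen spots in the arrays that chose them, circles the same spots in the arrays left out, and squares the other spots among the brightest 20% in the arrays left out. Circles lie below 0 in all 75 pairs and on average nearer to 0 than the triangles.

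The rule sets no bound on the difference between flaxseed with radiation and radiation alone, although it requires both groups to lie above flaxseed. This comparison asked whether the diet left a difference in these spots once the lung was irradiated, and it was tested with limma over all 9600 spots on normexp-corrected and quantile-normalized log2 values. No member passed (0 of 93), as no spot of the array did (0 of 9600, percent called 0). Without adjustment, 5 members had p under 0.05, all higher with both treatments, which is 5.38% of members against 5.4% of all spots. The median log2 difference over members was 0.07 and 61 of 93 were above 0, while over all spots the median was 0.00. The choice of members takes part in these directions, so the counts of higher members carry no test. The smallest p belonged to gene3908, at 0.55 ± 0.23 (log2, SE; limma adjusted p = 0.908), followed by gene0316, at 0.34 ± 0.14 (limma adjusted p = 0.908). Members named for an unadjusted p here and below were chosen after their values were seen. On the table values, the arrays of these groups overlapped in all 93 members (0 without overlap), where 0.615% of all spots had none.

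The 95% intervals for single members stayed wide. For gene1092 the difference between flaxseed with radiation and radiation was -0.24, with an interval from -0.71 to 0.23. For gene6982 it was 0.58, with an interval from -0.00 to 1.16, and for gene2661 it was 0.57, from 0.00 to 1.14 (limma adjusted p = 0.921 for each of the last 2). For gene1357 the interval ran from -0.55 to 0.53, so differences within that range are not excluded. The median standard error over members was 0.23.

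Flaxseed with radiation was also compared with no treatment, a difference the rule does not bound either. Again 0 of 93 members passed in limma, against 3 of 9600 spots (0.0312%), and 6 members had an unadjusted p under 0.05, or 6.45% against 7.58% of all spots. The count over all spots moved with single arrays. It was 27 without replicate 2 of the group with both treatments and 10 without untreated replicate 4. It was 7 without radiation replicate 5, as numbered in the table, and 1 without replicate 1 of the group with both treatments. Without replicate 5 of the group with both treatments, or untreated replicate 3 or 5, it was 0. The count of members was 0 in each of these fits. The 6 were gene0316, gene6982, gene0269, gene2661, gene3908 and gene6167, all higher with both treatments, with a smallest limma adjusted p of 0.545. Over all members the median was 0.14 and 73 of 93 were above 0, against a median of 0.01 over all spots and of 0.01 over the brightest 20%. In 53 of the 93 members the mean with both treatments was the highest of the 4 groups. The rule requires this group to lie above flaxseed, so these counts carry no test.

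In the comparisons that chose the members, 18 of the 93 passed in limma as lower with flaxseed than untreated, where 0.24% of all spots did. That count was 1 without flaxseed replicate 2 and 2 without flaxseed replicate 4, untreated replicate 1 or untreated replicate 4. Over all spots, in either direction, 42 passed in the full fit and 3 to 6 in these fits. The count of members was 9 without untreated replicate 2 or 5, 10 without flaxseed replicate 3 and 11 without replicate 2 of the group with both treatments. Over all spots 20 to 24 passed there. Against radiation 60 members passed as lower, where 4.11% of all spots did, and against flaxseed with radiation 75 passed as lower, where 4.53% of all spots did. Nothing is read from these counts, since the same arrays picked the spots. For the interaction of diet and radiation 0 of 93 passed, as did 0 of 9600 spots, with a smallest limma adjusted p of 0.0707 among members. Without adjustment, 66 members had p under 0.05 for it, where 10.1% of all spots did. The rule forces the interaction above 0 for every member on its own scale, so nothing is read from these counts either.

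Members were bright spots, a property the rule did not name. Of the 93, 89 lay among the brightest 20% of all spots by mean over the 20 arrays, 34 lay among the brightest 5%, and none lay in the dimmest 70%. Median signal over background was 33.3 over members, against 5.64 over all spots and 27.5 over the brightest 20%. The added 0.6 and the threshold on a log2 difference make it hard for dim spots to qualify. When spots were ranked by brightness into 10 sets of 960, the brightest set held 59 members, and its median of flaxseed minus untreated was -0.17 over all 960 spots. In the next set, with 30 members, it was -0.08, and the other 8 sets had medians between -0.01 and 0.02. Flaxseed with radiation minus radiation showed -0.01 in the brightest set. The part of this shift of bright spots in the low values of members was not tested.

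The same rule turned round, with flaxseed above each other group, found 12 spots against the 93. This imbalance depended on how arrays were scaled. After quantile normalization of the table values the split was 67 lower and 30 higher, and with normexp and quantile normalization it was 64 and 27. When the median deviation of spots of like brightness was removed from each array it was 56 and 45, with 55 of the 56 among the 93. All 93 members kept flaxseed as the lowest group under each of these settings, but the same arrays chose them, so this carries no test.

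**Figure D4:**
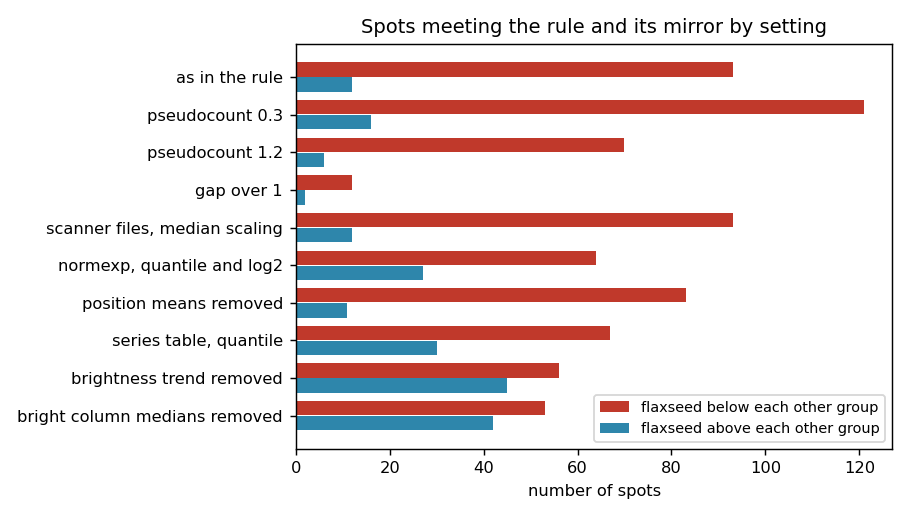
Number of spots that met the rule (red) and the same rule with flaxseed above each other group (blue) under 10 settings; the top pair, 93 and 12, is the rule as given. The blue bars rise to 27 to 45 and the red bars shrink to 53 to 67 where arrays were brought to a common distribution or the shift of bright spots was removed.

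Members were unevenly placed along the spot numbers. The numbers were read as 16 blocks of 24 rows and 25 columns, an assumption about the printed layout. Columns 7 to 13 held 43 members among 519 spots of the brightest 20%, columns 1 to 6 held 5 among 283, and columns 14 to 25 held 45 among 1118. Blocks 1 to 5 held 56 members among 623 bright spots, blocks 6 to 12 held 31 among 834, and blocks 13 to 16 held 6 among 463. These ranges of columns and blocks were drawn after the values were seen.

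Bright spots of columns 7 to 13 that were not members were also low with flaxseed. Their median per array was 2.89 ± 0.10 (log2, SD, n = 5) in flaxseed arrays, with a range from 2.72 to 2.94. It was 3.16 ± 0.09 in untreated arrays, 3.27 ± 0.18 with radiation and 3.29 ± 0.13 with both, and the lowest of these 15 arrays read 3.01. The flaxseed arrays thus lay below all others in these columns. In columns 14 to 25 the same median was 3.23 ± 0.11 with flaxseed and 3.24 ± 0.14 untreated, and in columns 1 to 6 it was 3.06 ± 0.10 and 3.02 ± 0.16.

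**Figure D5:**
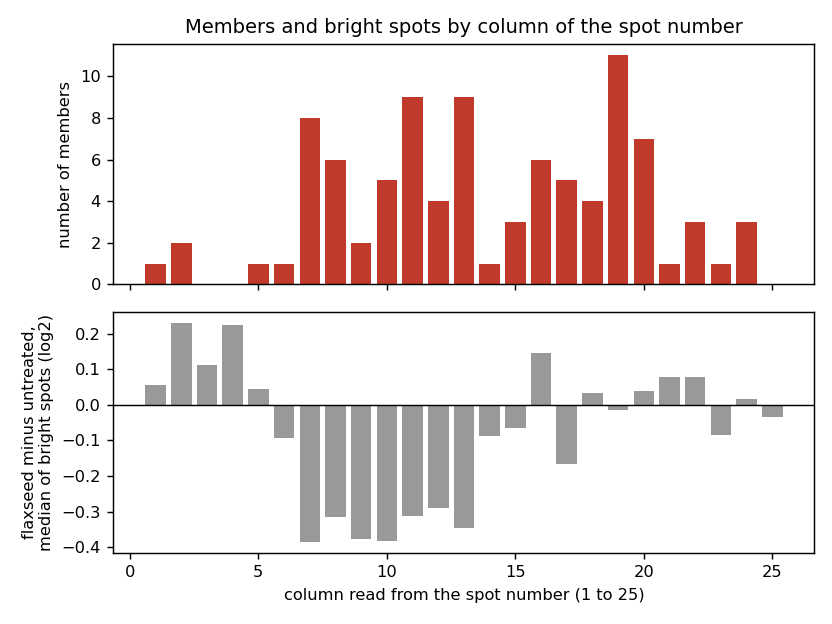
Number of the 93 members in each of the 25 columns read from the spot number (top) and median of flaxseed minus untreated over the spots of the brightest 20% in that column (bottom, log2). Columns 7 to 13 hold 43 members and have medians from -0.38 to -0.29, while column 19, with 11 members, has a median of -0.01.

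When the median deviation of the bright spots of a column was subtracted within each array, 53 spots met the rule, 44 of them members, and the reverse rule found 42. Of the 43 members of columns 7 to 13, 3 stayed, and of the 50 in other columns, 41 stayed. In arrays left out of the choice, spots chosen on these values differed between flaxseed and untreated by a median of -0.57, though each such choice sets its own spots past the same threshold. The part of print position in the low flaxseed values was not tested further.

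Spots next to members had medians near 0. The 182 non-members beside a member in its row had a median of -0.02 for flaxseed minus untreated, and the 173 above or below a member in its column had -0.06. These neighbours were not matched to members in brightness, and the shift with flaxseed was seen in bright spots. The medians are therefore a description, and a part of local position was not tested. Only 4 pairs of members were neighbours, among them gene3340 with gene3341 and gene2868 with gene2893.

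Local background, which is subtracted from the signal, was lower around members in flaxseed arrays. The median background at members was 1.35 ± 0.02 (SD, n = 5) times the array's median background with flaxseed, with a range of 1.33 to 1.38. It was 1.68 ± 0.06 in untreated arrays, 1.78 ± 0.14 with radiation and 1.75 ± 0.10 with both, and the lowest of these 15 arrays was 1.58. Over the brightest 20% of spots the ratio was 1.45 ± 0.02 with flaxseed and 1.47 ± 0.06 in untreated arrays. With no background correction, the limma median of flaxseed minus untreated over members was -0.83, against -0.77 with normexp. Then 27 members passed in place of 18, and over all spots, in either direction, 56 in place of 42. These arrays took part in the choice of members, so the values are a description. Background was higher around bright spots in every group. Whether the lower background around members follows from their choice was not tested.

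Within groups the members varied together more than spots at large. Deviations from group means correlated over the 20 arrays with a median r of 0.184 over the 4278 pairs of members, and 75.9% of pairs were above 0. The median was 0.070 among the brightest 20% of spots and 0.002 among all spots with any variation. Without the flaxseed arrays it was 0.178 among members. The highest value was 0.846, between gene1368 and gene2212, which lie in different blocks. Of the 4278 pairs, 23 shared both column and block, with a median r of 0.280. Of the 30 pairs above 0.7, 0 shared both, a count of little weight with so few such pairs. Among members of columns 7 to 13 the median r was 0.223, and among members of other columns 0.157. Arrays share scaling and labelling, so these correlations are a description without a test.

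Under the changes of array and setting tried, 32 of the 93 members met the rule in all 20 fits with an array left out. Of these, 20 also met it under both other pseudocounts, after removal of position means, after both quantile settings, and after removal of the brightness and column medians. They were gene1092, gene6982, gene5431, gene2188, gene0545 and gene0269 among the 12 with the largest gaps, and 14 others with gaps between 0.80 and 0.97. In blocks 1 to 5 lay 15 of the 20, and 3 of them, gene0266, gene0316 and gene0366, lay in the same column of block 1. Likewise gene2744, gene2419 and gene2969 lay in column 19 of block 5. Only 2 of the 20 lay in columns 7 to 13, where the removal of column medians alone had kept 3 members. For gene0316 the flaxseed arrays read 3.36, 3.05, 3.23, 3.23 and 2.93, all below the lowest of the other 15, which was 3.62. This group was picked by its values, and no test was made of it.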

How the data were processed

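RNA from 20 mouse lungs was labelled with 33P by reverse transcriptase and hybridised to 1 array per mouse, per the labels' protocols. Per the file headers, each scanner file holds a signal and a background median intensity for 9600 spots. The deposited table holds intensity values which, set against the scanner files, were background-subtracted signals divided by their own median in each array, with 95.9% to 97.7% of spots equal (relative tolerance 0.001); 217 values lie under 0 and were set to 0. It holds 0 columns of other samples. Image software is not given in the sources used here.

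The rule used the table with a pseudocount of 0.6. For tests, normexp with an offset of 50, quantile normalization and log2 were applied to the scanner intensities, and all 4 groups entered 1 limma 3.58.1 model in R 4.3.3 (16 residual degrees of freedom). Tests were two-sided with Benjamini-Hochberg adjustment over 9600 spots and a threshold of 0.05. The fit was also run on simulated data, whose outcome is not given here. Its spots varied independently, so it cannot speak to shifts shared by bright spots or columns. The number of arrays limits the precision. The offset shrinks differences of dim spots.

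The spots described by number are the 12 of largest gap and the 3 on either side of the threshold. The 3 brightest, the 3 dimmest, and any member passing with both treatments against radiation or against untreated are also described. Other spots were named after their values were seen. The members and lists were chosen with earlier results of these data known. Alternatives were other pseudocounts and thresholds, scanner values, median scaling, cyclic loess, other background corrections, leaving out dim spots, removal of position means, other moderation, fits of only the groups compared, and each array left out in turn. Quantile-normalized table values and removal of brightness or column medians were added after the data were seen.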

Additional observations from a re-analysis of the deposited data

Results flagged for a closer look

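Lone values were looked for in 92 groups of 5 arrays, and 3 were found, where chance gives about 4.6. For gene1357, radiation replicate 5 stood at 2.59 (log2) while the rest of that group lay between 3.85 and 4.28. For gene5431, replicate 5 of the mice with both treatments stood at 4.12 while the rest lay between 2.97 and 3.28. For gene3934, the dimmest member, radiation replicate 4 stood at 1.91 while the rest lay between 1.47 and 1.54. Replicates 4 and 5 of the radiation group are numbered as in the table, whose columns for these 2 mice match the scanner file of the other one. Without the array in question the gaps of gene1357 and gene5431 were 1.15 and 1.10, and that of gene3934 was 0.72. These equal the gaps with all arrays, since each gap was set by a group other than that of the lone array.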

How the results depend on the processing

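The number of members was 12 with a gap over 1, 56 with the brightness medians removed and 53 with the bright column medians removed, where the reverse rule gave 2, 45 and 42. It was 121 and 70 with pseudocounts of 0.3 and 1.2, 83 with position means removed, and 67 to 133 when single arrays were left out. The median of flaxseed minus untreated over members was -0.77 on the normexp and quantile scale, -0.93 with background subtraction and median scaling, and -0.84 to -0.72 with single arrays left out. For flaxseed with radiation against radiation it was 0.07, with 0.01 to 0.12 when arrays were left out and 0.15 under median scaling. Against untreated it was 0.14, with 0.09 to 0.17. The count of members passing in these 2 comparisons was 0 in limma under every alternative run. Members passing as lower with flaxseed than untreated, a comparison the rule used, numbered 18, and 1 to 21 when arrays were left out. Over all spots, in either direction, 42 passed, and 3 to 56 when arrays were left out. Members passing numbered 5 with background subtraction and median scaling (9 of all spots) and 9 with trend and robust moderation (24 of all spots). They numbered 11 with cyclic loess (26 of all spots) or only the groups compared in the fit (35 of all spots). Without the dimmest spots they numbered 35 (87 of all spots). Over all spots, the 3 that passed between flaxseed with radiation and untreated became 34 with no background correction, 28 without the dimmest spots, 26 with trend and robust moderation, 6 to 10 with median scaling, cyclic loess, background subtraction or the table values, and 0 with only the groups compared. In arrays left out of the choice, quantile normalization gave -0.57 against untreated, -0.74 against radiation and -0.77 against both. The cause of these shifts was not tested. No paired analysis was possible because the labels number the mice 1 to 20 and give no number shared between groups. The median standard error of 0.23 over members, with 5 arrays per group, limits what single members can show.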
